A study of Mus musculus with 18 samples.

Results

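The genes described here are the 3 neighbours of the myotonic dystrophy type 1 (DM1) locus of the mouse, Dmpk, Six5 and Dmwd, and the actin isoforms Acta1, Actc1, Acta2 and Actb. They were chosen by name, because the human counterparts of Dmpk and its neighbours carry or flank the repeat that causes DM1 and because the transgene of the mouse model is a skeletal actin gene. Of 8 genes listed, 7 were analysed out of 46725 in the files, and Actg1 (cytoplasmic gamma actin) was not analysed here. The 7 genes held 121 of the 391858 exon bins, a bin being a piece of exon that no annotated exon end divides. RNA came from the gastrocnemius and quadriceps muscles of mice aged 20 weeks in 3 groups of 3, namely WT mice (FVB strain), untreated HSA-LR mice and HSA-LR mice given Pip6a-PMO. Same-numbered libraries of both muscles in a group were taken as the same mouse, for 9 mice and 18 libraries. HSA-LR mice, listed under the same strain, carry the human skeletal actin gene with an expanded CTG repeat in its 3' UTR, which is expressed in skeletal muscle only, so that none of these mice carries a change in mouse Dmpk itself. Pip6a-PMO is an antisense morpholino of CAG units coupled to a cell-penetrating peptide, and the treated mice were HSA-LR mice that received it into a vein in a volume of 160 µL. WT and HSA-LR mice are labelled as untreated, although the injection protocol in the labels also names saline, and the dose given to the sequenced mice is not stated in the labels.

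In people, DM1 is caused by an expanded CTG repeat in the 3' UTR of DMPK, whose RNA traps splicing factors of the muscleblind family in the nucleus. DMPK is a serine/threonine kinase of heart and skeletal muscle, SIX5 is a homeobox transcription factor encoded just downstream of it, and DMWD is a WD repeat protein encoded just upstream. Actins are the building blocks of filaments: Acta1 encodes the skeletal alpha actin of adult sarcomeres, Actc1 the cardiac alpha actin that is also used in fetal and regenerating skeletal muscle, Acta2 the alpha actin of smooth muscle, and Actb the beta actin of the cytoplasm of most cells.

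The libraries held 98916844 to 143135976 bin counts each, so that counting error was small for every gene here except Six5, which had 143 to 340 counts per library. Values below are normalized CPM, the counts relative to the library total after TMM scaling across the 18 libraries. In contrast, log2 fold changes (FC) come from edgeR's quasi-likelihood test within each muscle, with adjusted P values over all genes tested and a call at an adjusted P under 0.1. Standard errors (SE) were derived from that test, as the size of the log2 FC divided by the square root of the F statistic. The label of skeletal muscle held, since 7 skeletal muscle markers, among them creatine kinase Ckm, summed to at least 120000 CPM in every library. These markers could not check which muscle a library came from. Between quadriceps and gastrocnemius, 0 of the 7 were called, where 17.7% of all genes were called. A label did not hold for 2 mice: WT mouse 2, labelled female, had a summed CPM of 153 and 188 over 4 Y-linked genes in its gastrocnemius and quadriceps, whereas WT mouse 3, labelled male, had 1.14 and 1.43. All HSA-LR and treated mice were labelled male and had 134 to 188 CPM over these genes. The only mouse with few Y-linked counts was thus a WT mouse. WT mice are kept under their numbers below, results that rest on mouse 2 or 3 are given without them, and whether sex has a part in a result was not tested. An exchange of these 2 WT mice in both muscles would leave the main group comparisons as they are. In the gastrocnemius of treated mouse 3 the log2 ratio of 5' to 3' coverage was -0.82, against -0.43 to -0.30 in the other gastrocnemius libraries.

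Of the 7 genes, edgeR called 0 higher and 3 lower in HSA-LR against WT gastrocnemius, Actc1, Acta2 and Dmwd, where 15.5% of all tested genes were called, and 1 higher, Dmpk, and the same 3 lower in the quadriceps, where 20.3% were called. In treated against WT mice the count was 1 lower in each muscle, Actc1, beside 1.04% of all genes in the gastrocnemius and 1.41% in the quadriceps. In treated against HSA-LR mice it was 1 higher in the gastrocnemius, Dmwd, beside 10% of all genes. In the quadriceps it was 0 beside 13.8%, although 1 of the 7 genes there, Dmwd, had an unadjusted P under 0.05 (0.0244) and DESeq2 called 1. A difference of the HSA-LR effect between the muscles was not shown for any of the 7 genes (0 of 7 called by edgeR, smallest unadjusted P = 0.186, 0.0309% of all genes called). The shares of all genes given here also stand beside the counts of the gene lists below.

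Dmpk (ENSMUSG00000030409.15, GRCm38 chr7:19083849-19093821, plus strand) was higher in HSA-LR quadriceps, where it rose 1.44-fold, and leaned the same way in the gastrocnemius without passing the test. In the quadriceps, Dmpk had 533, 497 and 756 normalized CPM in WT mice 1, 2 and 3, 872, 794 and 901 in HSA-LR mice and 704, 662 and 692 in treated mice. All HSA-LR values lay above all WT and all treated values, and WT mouse 3 lay above every treated mouse. The log2 FC of Dmpk was 0.52 between HSA-LR and WT mice (SE 0.15, adjusted P = 0.0477), -0.31 in treated against HSA-LR mice (SE 0.15, adjusted P = 0.214) and 0.21 between treated and WT mice (adjusted P = 0.59). In the gastrocnemius, Dmpk had 476, 534 and 717 normalized CPM in WT mice, 781, 720 and 697 in HSA-LR mice and 664, 631 and 532 in treated mice. WT mouse 3 overlapped the HSA-LR mice there, and no treated mouse did. There the log2 FC in HSA-LR against WT mice was 0.34 (SE 0.15, adjusted P = 0.209) and -0.26 in treated against HSA-LR mice (SE 0.15, adjusted P = 0.357).

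The Dmpk call rested on single mice. Without WT mouse 3, the log2 FC in HSA-LR against WT mice was 0.74 in the quadriceps (adjusted P = 0.00308) and 0.52 in the gastrocnemius (adjusted P = 0.0354), so that Dmpk was called in both muscles, and treated against HSA-LR quadriceps was called as well (-0.31, adjusted P = 0.0574). Without WT mouse 1 or 2, or HSA-LR mouse 1 or 3, the quadriceps call was lost, with log2 FC values between 0.41 and 0.50 and adjusted P values between 0.112 and 0.139. The effect in the quadriceps minus that in the gastrocnemius was 0.18 on the log2 scale (SE 0.13, adjusted P = 0.805), so a difference between the muscles was not shown.

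**Figure D1:**
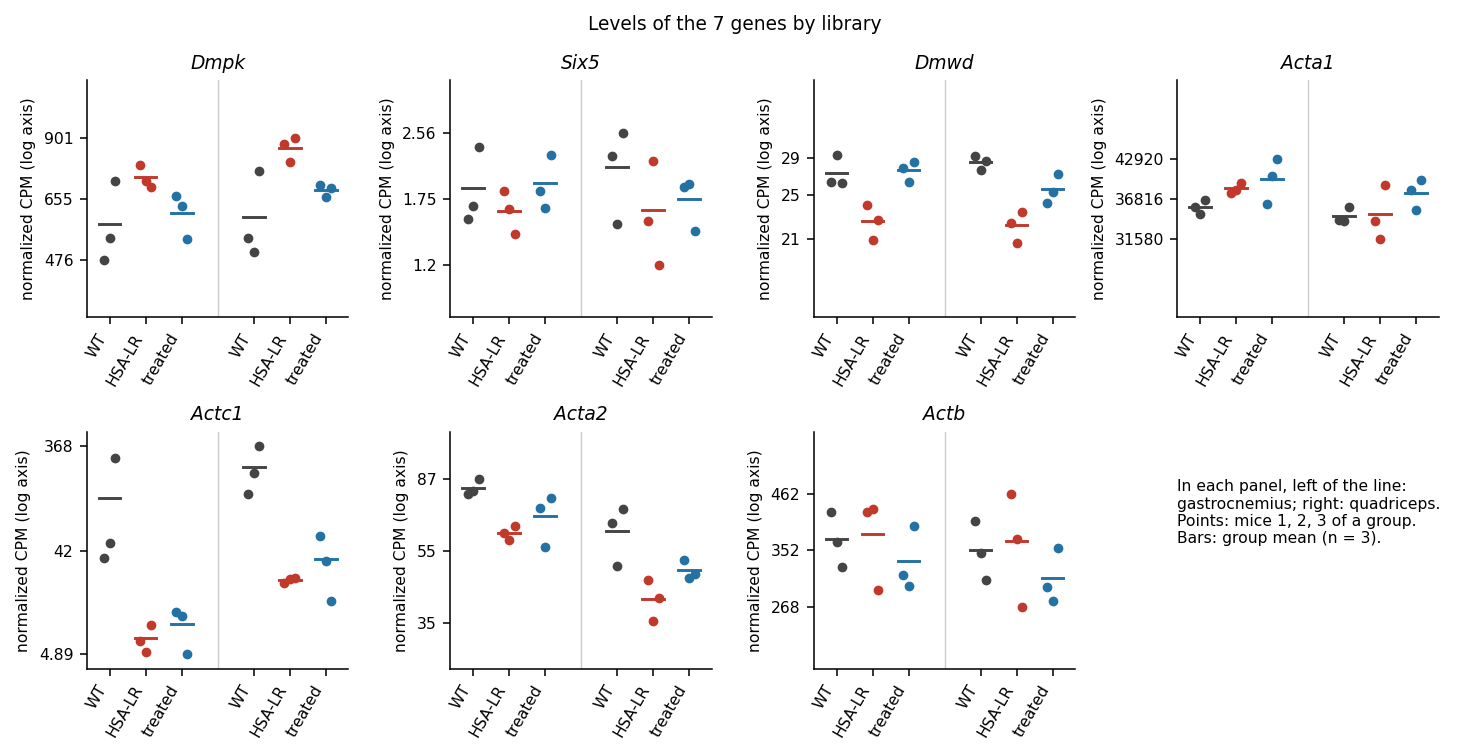
Normalized CPM (log axis) of the 7 genes in each library, with the gastrocnemius left and the quadriceps right of the line in each panel, 3 mice per group and bars at the group means. Dmpk stood highest and Dmwd lowest in HSA-LR quadriceps, Actc1 was low in HSA-LR and treated mice of both muscles, and Acta1 spanned only 31580 to 42920.

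The exons of Dmpk moved together. On the absolute scale, where each bin is tested like a gene, 29 of 53 Dmpk bins were higher in HSA-LR than WT quadriceps and all 53 had a positive log2 FC, with a median of 0.54. Of all bins tested in that comparison, 12.1% were called. In the gastrocnemius, 49 of 50 bins had a positive log2 FC (median 0.37), but only bin 003 in the 5' UTR was called (0.49, SE 0.13, adjusted P = 0.0459), where 10.4% of all bins were called. Treated against HSA-LR quadriceps, bins 003 and 004 of the 5' UTR were lower, with log2 FC values of -0.45 and -0.48 (6.75% of all bins called), and no Dmpk bin was called in treated against HSA-LR gastrocnemius (5.93%). Over all 7 genes, 12 of 114 were called on the absolute scale in HSA-LR against WT gastrocnemius (1 higher, 11 lower) and 48 of 117 in the quadriceps (29 higher, 19 lower). Bins of 1 gene share its reads and are not separate observations. Tested against the change of their gene with diffSpliceDGE, 0 bins of the 7 genes were called in any of the 6 comparisons or in any of the 84 fits tried, beside 0.796%, 0.0654% and 0.299% of all bins in the gastrocnemius (HSA-LR against WT, treated against WT, treated against HSA-LR) and 0.283%, 0.0341% and 0.167% in the quadriceps. In the tests against the gene, an unadjusted P under 0.05 was found for 0 of 114 bins in each gastrocnemius comparison, for 0 of 117 in HSA-LR against WT quadriceps, for 1 in treated against WT quadriceps (Dmpk bin 019, 0.0134) and for 2 in treated against HSA-LR quadriceps (Actb bins 014 and 015).

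Bin 043 of Dmpk was singled out after its values were seen, and its sequence is shown because it holds the longest CTG run of any annotated Dmpk transcript, 3 units, whereas the longest run of the main transcript has 2. The bin is 118 bases long and is annotated as coding only in a transcript marked for nonsense-mediated decay, its other transcripts being noncoding or retaining an intron (chr7:19092418-19092535, plus strand). The run lies at chr7:19092498-19092506 and is in capitals in its reference context, from the transcript sequence on GRCm38.
Dmpk: ctctcgccCTGCTGCTGggctccga
Runs of at least 3 CTG units occur in 4786 of 55341 genes with transcripts in the annotation, so the run is a common one. Bin 043 had 1.78, 1.76 and 3.69 normalized CPM in WT quadriceps, 4.41, 4.38 and 4.90 in HSA-LR quadriceps and 2.98, 3.0 and 2.48 in treated quadriceps. No WT or treated mouse reached the HSA-LR values. Its log2 FC on the absolute scale was 0.94 in HSA-LR against WT quadriceps (SE 0.25, adjusted P = 0.0503) and 0.72 in the gastrocnemius (SE 0.25, adjusted P = 0.122). As a share of Dmpk bin counts it took 0.335% to 0.488% in WT, 0.505% to 0.552% in HSA-LR and 0.359% to 0.452% in treated quadriceps, and 0.325% to 0.444%, 0.487% to 0.522% and 0.279% to 0.455% in the gastrocnemius. The HSA-LR shares lay above all others in each muscle, but the change against the gene, 0.40 and 0.39 on the log2 scale in the quadriceps and gastrocnemius, did not pass the test (unadjusted P = 0.0725 and 0.0706, adjusted P = 1 for both). These P values were the smallest of the 53 and 50 Dmpk bins tested against the gene in HSA-LR against WT mice. The bin is thus the extreme of its gene, and its values are a description. Whether the CTG run has a part in them was not tested.

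**Figure D2:**
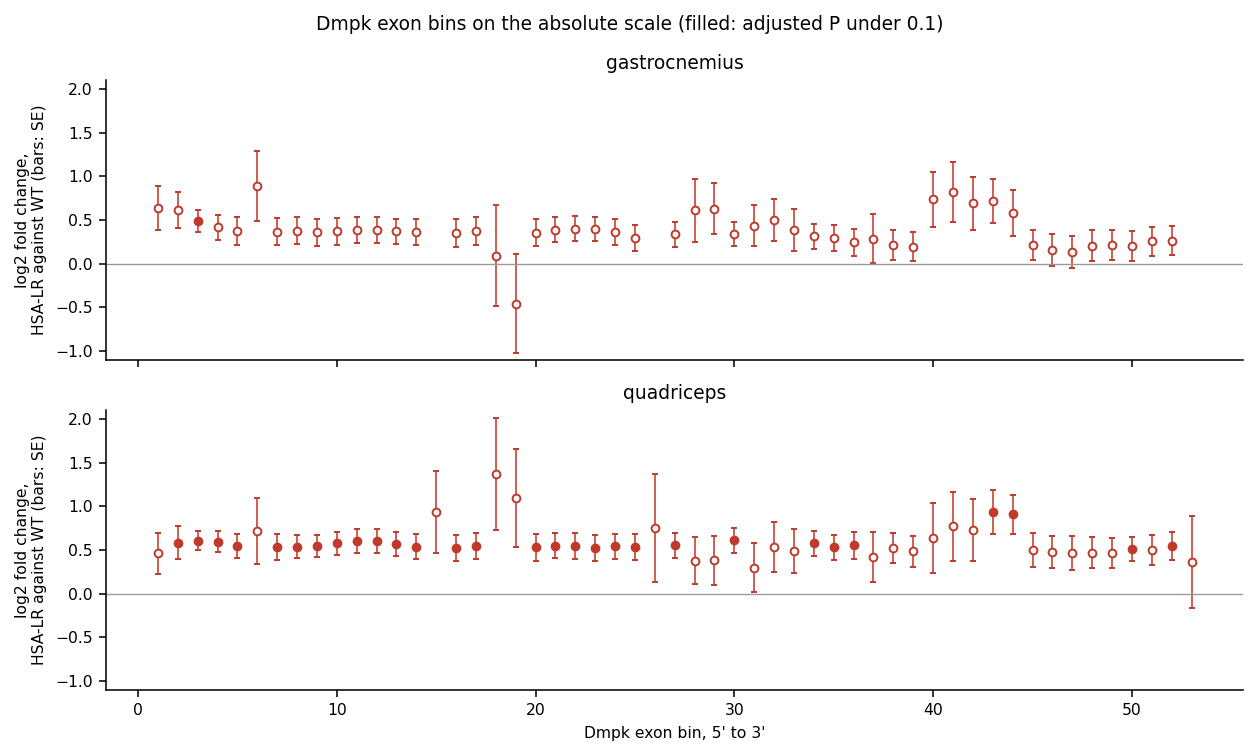
Log2 FC in HSA-LR against WT mice (bars: SE) for each tested Dmpk exon bin from 5' to 3', in the gastrocnemius (50 bins) and quadriceps (53 bins), with filled points at an adjusted P under 0.1. Points lie above 0 in 49 of 50 and 53 of 53 bins, and bins 043 and 044 reach 0.94 and 0.91 in the quadriceps.

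Dmwd (ENSMUSG00000030410.16, chr7:19076227-19082776, plus strand), the gene upstream of Dmpk, moved the other way and fell in HSA-LR mice of both muscles. In the quadriceps, Dmwd had 29.3, 27.7 and 28.7 normalized CPM in WT mice, 22.4, 20.7 and 23.4 in HSA-LR mice and 24.3, 25.3 and 27.3 in treated mice. The 3 groups did not overlap, with treated mice between the others. HSA-LR against WT mice gave a log2 FC of -0.36 (SE 0.08, adjusted P = 0.0177), which is 1.29-fold lower, and 0.21 in treated against HSA-LR mice (SE 0.08, adjusted P = 0.134). In the gastrocnemius, Dmwd had 26.4, 29.4 and 26.3 normalized CPM in WT mice, 24.1, 20.9 and 22.7 in HSA-LR mice and 27.9, 26.4 and 28.6 in treated mice. Treated and WT mice overlapped, and every HSA-LR mouse lay below both. This gave a log2 FC of -0.29 for HSA-LR against WT mice (SE 0.09, adjusted P = 0.0619), 0.30 in treated against HSA-LR mice (SE 0.09, adjusted P = 0.0758) and 0.01 between treated and WT mice (adjusted P = 0.978). The quadriceps call in HSA-LR mice held with each mouse left out. On the absolute scale, 4 of 9 tested Dmwd bins were lower there, where 12.1% of all bins were called. The gastrocnemius calls were lost without single mice: against WT mice without WT mouse 1 or 2 or HSA-LR mouse 2 or 3 (adjusted P up to 0.203), and treated against HSA-LR mice without any mouse except WT mouse 3.

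Six5 (ENSMUSG00000040841.5, chr7:19094594-19098549, plus strand) had the lowest level of the 7 genes and passed no test. Six5 had 1.56, 1.69 and 2.36 normalized CPM in WT, 1.83, 1.65 and 1.43 in HSA-LR and 1.83, 1.67 and 2.25 in treated gastrocnemius. The quadriceps values were 2.24, 1.52 and 2.56 in WT, 1.54, 2.18 and 1.2 in HSA-LR and 1.88, 1.91 and 1.45 in treated mice. All groups overlapped. The log2 FC of Six5 in HSA-LR against WT mice was -0.20 (SE 0.20, adjusted P = 0.591) in the gastrocnemius and -0.36 (SE 0.27, adjusted P = 0.431) in the quadriceps, so a change of the size seen for Dmwd could not be told from the spread between mice. Without WT mouse 3, the log2 FC was -0.001 in the gastrocnemius and -0.192 in the quadriceps.

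The other protein-coding genes within 100 kb of Dmpk were also examined. Of 11 with rows in the files, 6 were expressed highly enough to be tested in the gastrocnemius and 7 in the quadriceps. In HSA-LR against WT gastrocnemius 3 were lower and 0 higher: Mypop, a Myb-related transcriptional repressor, at a log2 FC of -0.64 (adjusted P = 0.0113), Sympk, a scaffold of mRNA 3' end processing, at -0.36 (adjusted P = 0.0219), and Irf2bp1, a transcriptional corepressor, at -0.35 (adjusted P = 0.0319). The same 3 genes were higher in treated against HSA-LR gastrocnemius, at 0.55, 0.28 and 0.36 (adjusted P = 0.0349, 0.0815 and 0.0452). In the quadriceps, Mypop (-0.49, adjusted P = 0.0516) and Sympk (-0.35, adjusted P = 0.0126) were lower in HSA-LR mice, and both were higher in treated against HSA-LR mice (0.63 and 0.24, adjusted P = 0.0353 and 0.0702). None of the neighbours was called in treated against WT mice of either muscle. The 2 comparisons share the HSA-LR mice, so that opposite signs are not independent. Thus Dmpk was the only called gene of this stretch with a positive log2 FC in HSA-LR mice, a contrast that was not itself tested. Snrpd2, Qpctl and Fbxo46 were tested in both muscles and not called in any comparison of groups, with log2 FC values of -0.27 to -0.06 in HSA-LR against WT mice. Foxa3, Rsph6a, Gm4969, Nanos2 and Gipr stayed below 0.24 CPM in every library.

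**Figure D3:**
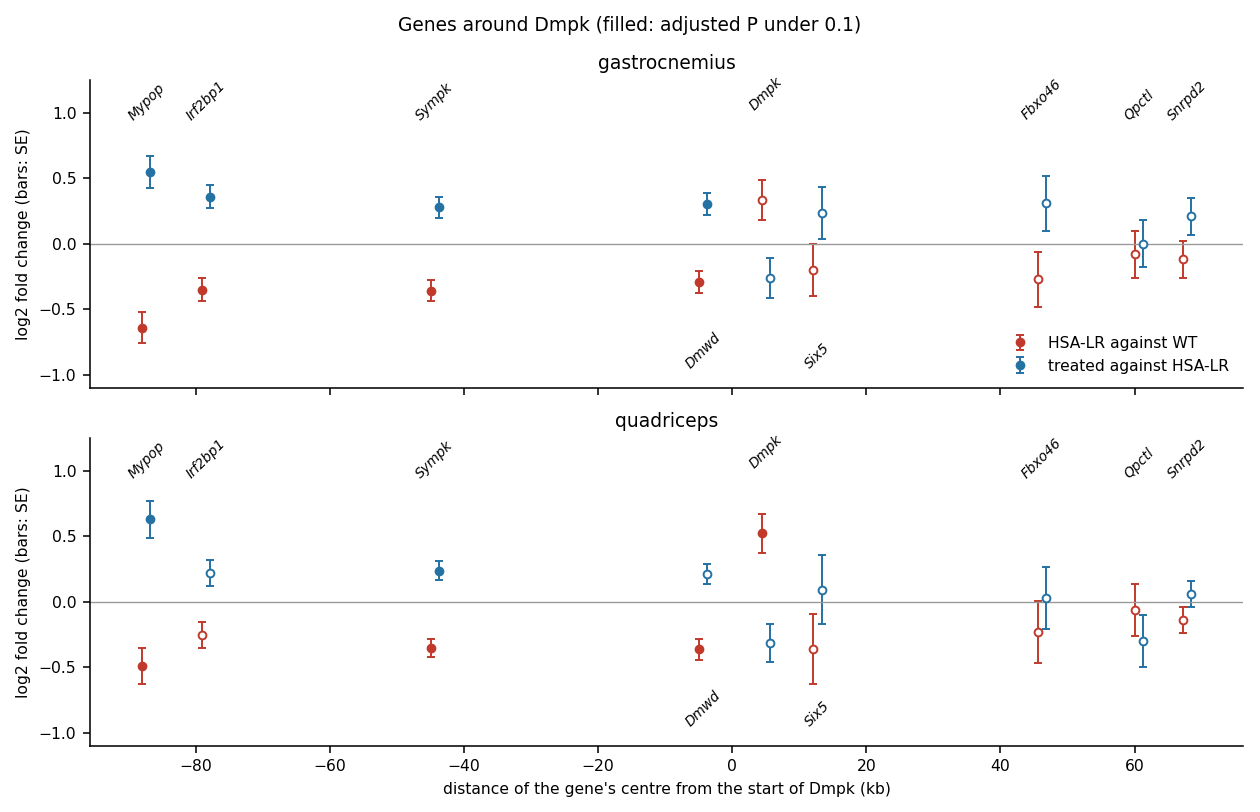
Log2 FC (bars: SE) of genes within 100 kb of Dmpk in HSA-LR against WT and treated against HSA-LR mice, by the distance of each gene's centre from the start of Dmpk in kb, with filled points at an adjusted P under 0.1. Gipr, tested in the quadriceps alone, is left out. Mypop, Sympk and Dmwd lie below 0 in HSA-LR against WT mice and above 0 in treated against HSA-LR mice, and Dmpk lies the other way in both comparisons.

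Relatives of the locus genes were counted as well. Of all tested genes, 15.5% were called in HSA-LR against WT gastrocnemius and 20.3% in the quadriceps. In treated against HSA-LR mice the shares were 10% and 13.8%. Of the 6 other kinases of the DMPK family, 1 was higher in HSA-LR gastrocnemius (Rock1, 0.29 on the log2 scale, adjusted P = 0.0646) and lower again in treated against HSA-LR mice (-0.32, adjusted P = 0.0667). In the quadriceps, 1 was lower in HSA-LR mice (Cdc42bpb, -0.45, adjusted P = 0.0233) and 1 was lower in treated against HSA-LR mice (Cdc42bpg, -0.38, adjusted P = 0.0802). Of 7 tested transcription factors that are relatives of Six5 or their EYA partners, known from the myogenic program, Six2 was lower (-1.40, adjusted P = 0.0114) and Eya4 higher (0.78, adjusted P = 0.0887) in HSA-LR gastrocnemius, and 0 were called in HSA-LR quadriceps. The median log2 FC of the kinases in HSA-LR against WT mice was 0.08 in the gastrocnemius and -0.18 in the quadriceps, and that of the relatives of Six5 and EYA genes was 0.06 and -0.12. Neither list had a call in treated against WT mice, where 1.04% of all genes were called in the gastrocnemius and 1.41% in the quadriceps.

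Per length, Acta1 far exceeded every other gene described here. The median over the 18 libraries was 23720 normalized CPM per kb for Acta1, followed by Dmpk at 160 (range 110 to 208), Actb at 131 (100.1 to 173), Acta2 at 29.6 (17.4 to 42.6), Actc1 at 14.6 (3.02 to 228), Dmwd at 10.3 (8.09 to 11.5) and Six5 at 0.585 (0.398 to 0.852). The ranges of Dmpk and Actb overlapped, that of Actc1 overlapped those of Dmpk, Actb, Acta2 and Dmwd, and all Acta2 values lay above all Dmwd values. A pair of reads that spans several short bins counts in each of them, which raises sums over many bins. From the largest bin alone, Dmpk stood at 68.3 and Actb at 153, which turns their order, while Acta1 stood at 26280. Of the 4 actins together, Acta1 made up 98.4% to 99.5% per kb, Actb 0.395% to 0.775%, Acta2 0.0794% to 0.176% and Actc1 0.0107% to 0.963%.

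The actin genes share most of their coding bases, which bears on how far counts can be told apart. Coding sequence of Acta1 was 86.16% identical to that of Actc1, 85.36% to Acta2 and 85.28% to Actb, with longest shared runs of 29, 29 and 77 bases. A pair would match both genes exactly only if all its bases lay within such runs. The first 30 coding bases show how they diverge from the start codon onward. Capitals mark bases that differ from Acta1.
Acta1: atgtgcgacgaagacgagaccaccgctctt
Actc1: atgtgTgacgaCgaGgagaccaccgctTtG
Acta2: atgtgTgaAgaGgaAgaCaGcacAgcCctG
Actb: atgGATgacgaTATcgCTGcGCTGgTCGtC
Actc1 differs at 5 of these 30 bases, Acta2 at 9 and Actb at 17. How the authors' counting treated pairs with several equally good positions is not given in the sources used here, so the lower isoforms remain uncertain to the extent that Acta1 reads could be placed on them.

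Acta1 (ENSMUSG00000031972.5, chr8:123891769-123894751, minus strand) passed no test in either muscle. Acta1 had 35730, 34750 and 36710 normalized CPM in WT, 37670, 38100 and 39150 in HSA-LR and 36130, 40200 and 42920 in treated gastrocnemius. All HSA-LR mice lay above all WT mice there by a small margin. In the quadriceps it had 33980, 33840 and 35710 in WT, 33860, 31580 and 38760 in HSA-LR and 38110, 35340 and 39540 in treated mice, and all groups overlapped. For HSA-LR against WT mice, log2 FC values were 0.09 (SE 0.12, adjusted P = 0.707) in the gastrocnemius and 0.01 (SE 0.12, adjusted P = 0.964) in the quadriceps, and in treated against HSA-LR mice 0.06 (adjusted P = 0.805) and 0.12 (adjusted P = 0.533). With the largest bin in place of the sum, the treated against HSA-LR value in the gastrocnemius was -0.05.

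Reads of the human skeletal actin transgene could be counted on mouse Acta1 where the species agree in sequence, and such reads would raise some Acta1 bins in HSA-LR mice. No bin passed the test. On the absolute scale, 0 of 8 Acta1 bins were called by edgeR in any of the 3 comparisons in either muscle, and 0 had an unadjusted P under 0.05, the smallest being 0.216. Of all bins, 0.345% to 12.1% were called in these comparisons. In HSA-LR against WT gastrocnemius, the 8 log2 FC values were all positive and ran from 0.03 in bin 001, which holds the 3' UTR and the end of the coding sequence, to 0.13 in bin 004, with SE values of up to 0.17. In the quadriceps they ran from -0.03 to 0.04. Against the gene as a whole, the values were -0.05 to 0.05 and -0.06 to 0.01 in the gastrocnemius and quadriceps, with 0 calls (smallest unadjusted P = 0.812 and 0.793). Neither other settings nor leaving out a mouse gave a call, with 0 in 72 fits of the Acta1 bins on the absolute scale.

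The share of Acta1 counts in bin 001, which holds the 3' UTR, was compared in each library. Transgene reads counted on coding bins would lower this share, and reads counted on the 3' UTR would raise it. On which bins such reads would fall was not tested. The bin took 14.5%, 14.6% and 14.4% of Acta1 bin counts in WT, 13.7%, 13.9% and 14.1% in HSA-LR and 14.4%, 14.3% and 16.0% in treated gastrocnemius. It took 14.3%, 14.3% and 14.7% in WT, 14.4%, 14.2% and 14.0% in HSA-LR and 14.0%, 14.2% and 14.2% in treated quadriceps. HSA-LR gastrocnemius thus lay below WT, and treated mouse 3 stood apart. The means were 14.46% ± 0.09 in WT, 13.93% ± 0.22 in HSA-LR and 14.88% ± 0.96 in treated gastrocnemius (SD, n = 3 mice), and 14.43% ± 0.23, 14.22% ± 0.24 and 14.13% ± 0.12 in the quadriceps. The difference of HSA-LR from WT was -0.53 percentage points in the gastrocnemius (exact permutation test, two-sided, P = 0.1, the lowest P that 3 mice against 3 can give) and -0.21 in the quadriceps (exact permutation test, P = 0.4). For the 6 carriers of the transgene against the 3 WT mice it was -0.06 in the gastrocnemius (exact permutation test, P = 0.69) and -0.25 in the quadriceps (exact permutation test, P = 0.143), with no P under 0.286 after adjustment over the 6 tests made. The log2 ratio of 5' to 3' coverage over other genes was -0.43 to -0.35 in WT, -0.33 to -0.30 in HSA-LR and -0.42, -0.33 and -0.82 in treated gastrocnemius, and -0.46 to -0.28, -0.39 to -0.27 and -0.32 to -0.24 in the quadriceps. Its part in the shares was not tested. Without treated mouse 3, the 6-against-3 comparison of the gastrocnemius became -0.37 (5 against 3 mice, exact permutation test, P = 0.0357), and without HSA-LR mouse 1 that of the quadriceps became -0.31 (exact permutation test, P = 0.0357), again below WT. This P is the lowest that 5 mice against 3 can give. Coding bin 004 took 15.5%, 15.5% and 15.7% of Acta1 counts in WT and 16.3%, 16.1% and 15.8% in HSA-LR gastrocnemius. In treated gastrocnemius it took 15.8%, 15.9% and 15.5%. All HSA-LR shares of bin 004 lay above all WT shares there, whereas in the quadriceps they overlapped. Its change against the gene was not called in either muscle.

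**Figure D4:**
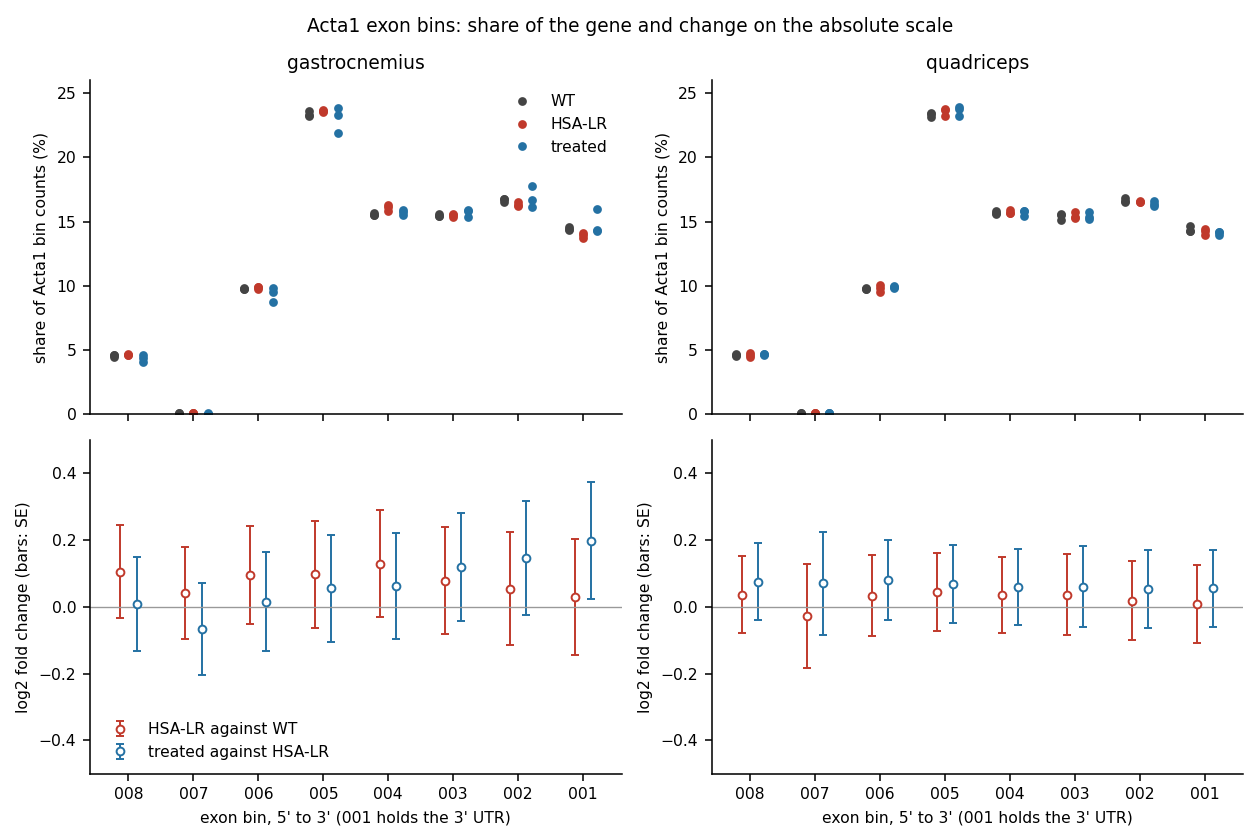
Acta1 exon bins from 5' to 3': share of the gene's bin counts in each library (top, %) and log2 FC with SE on the absolute scale (bottom) in HSA-LR against WT and treated against HSA-LR mice, by muscle. Shares differ little between groups, but in the gastrocnemius all HSA-LR mice lie below all WT mice in bin 001 and above them in bin 004. Bin 001 of treated gastrocnemius 3 reaches 16.0%, and every log2 FC of these comparisons lies between -0.07 and 0.20.

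Actc1 (ENSMUSG00000068614.7, chr2:114047282-114053548, minus strand) changed most of the 7 genes, and it was the only one called in treated against WT mice. In the gastrocnemius, Actc1 had 35.8, 49.0 and 288 normalized CPM in WT mice, 6.51, 5.13 and 8.93 in HSA-LR mice and 11.8, 10.8 and 4.89 in treated mice. WT mice lay above all others but differed among themselves, with mouse 3 far above the other two. HSA-LR against WT mice had a log2 FC of -4.19 (SE 0.79, adjusted P = 0.0112), 18.3-fold lower, and -3.76 in treated against WT mice (SE 0.77, adjusted P = 0.09). In the quadriceps, Actc1 had 135, 210 and 368 normalized CPM in WT mice, 21.3, 23.4 and 23.7 in HSA-LR mice and 57.3, 33.7 and 14.7 in treated mice. Here too WT mice stood apart from both other groups, which overlapped each other. In HSA-LR against WT mice the log2 FC was -3.38 (SE 0.51, adjusted P = 0.00367), 10.4-fold lower, and -2.75 in treated against WT mice (SE 0.49, adjusted P = 0.0565).

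Treated and HSA-LR mice did not differ detectably in Actc1, with log2 FC values of 0.43 (SE 0.71, adjusted P = 0.763) in the gastrocnemius and 0.63 (SE 0.47, adjusted P = 0.416) in the quadriceps, and these SE values leave room for changes of more than 2-fold. The call in HSA-LR against WT mice held with each mouse left out. Without WT mouse 3, the highest WT mouse, it was -2.64 in the gastrocnemius (adjusted P = 0.00367) and -2.92 in the quadriceps (adjusted P = 0.00841). The call in treated against WT mice was lost in 7 of 9 such fits in the gastrocnemius and in 3 of 9 in the quadriceps, although the log2 FC stayed at or below -2.21. All 7 tested Actc1 bins were lower in HSA-LR mice, at -4.46 to -4.12 in the gastrocnemius and -3.52 to -3.26 in the quadriceps, where 10.4% and 12.1% of all bins were called. All 7 were lower in treated against WT mice too, at -3.88 to -3.69 and -2.84 to -2.76, where 0.427% and 0.345% of all bins were called in the gastrocnemius and quadriceps. The fall thus covered the whole transcript.

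Actc1 is used by regenerating fibers, whose markers are given beside it. The 6 genes Myh3, Myh8, Pax7, Myod1, Myog and Ncam1 summed to 36.7 to 77.5 CPM in WT, 64.9 to 71.3 in HSA-LR and 55.0 to 58.5 in treated gastrocnemius, and to 35.4 to 54.8, 70.9 to 83.9 and 59.3 to 63.9 in the quadriceps. Of these 6, 2 were higher and 0 lower in HSA-LR gastrocnemius (Myod1, 0.78, adjusted P = 0.033, and Myh8, 0.99, adjusted P = 0.0782), and 4 were higher and 1 lower in the quadriceps. Slow fiber markers summed to 97.6 to 411 CPM in WT, 18.1 to 95 in HSA-LR and 38.0 to 1590 in treated quadriceps, so that HSA-LR mice lay below all WT mice, and to 2160 to 4450, 1480 to 3230 and 2300 to 11800 in the gastrocnemius, where the groups overlapped. Their median log2 FC in HSA-LR against WT mice was -2.34 in the quadriceps and -0.53 in the gastrocnemius, with 0 of 6 called by edgeR in either muscle. Whether fiber makeup has a part in the Actc1 values was not tested. In these whole-muscle samples, fewer cells of a type and less RNA per cell cannot be told apart.

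The promoters of Actc1 and Acta1 hold a CArG box, the site of serum response factor (SRF), which drives actin genes, whereas the levels of these genes did not move together. The match had to be CC, then 6 bases that are each A or T, then GG, and looser forms of the box were not searched. It was searched on both strands from 250 bases before to 50 after the start site in RefSeq promoters on GRCm38.p6. The boxes are in capitals with 5 flanking bases, at chr2:114052913-114052922 (position -47, minus strand) and chr8:123894839-123894848 (position -73, minus strand).
Actc1: ggcgaCCAAATAAGGcaagg
Acta1: gacacCCAAATATGGcttgg
A CArG box of this strict form was found in 535 of 32851 promoter windows (1.63%). None of this form was found in the windows of Acta2, Dmpk, Dmwd and Six5, which does not show that they lack a looser form. Actb had no window in the table. Of SRF and its coactivators, 6 genes were tested, and edgeR called 0 of them in any comparison of groups, with median log2 FC values of 0.02 in HSA-LR gastrocnemius and 0.08 in HSA-LR quadriceps.

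**Figure D5:**
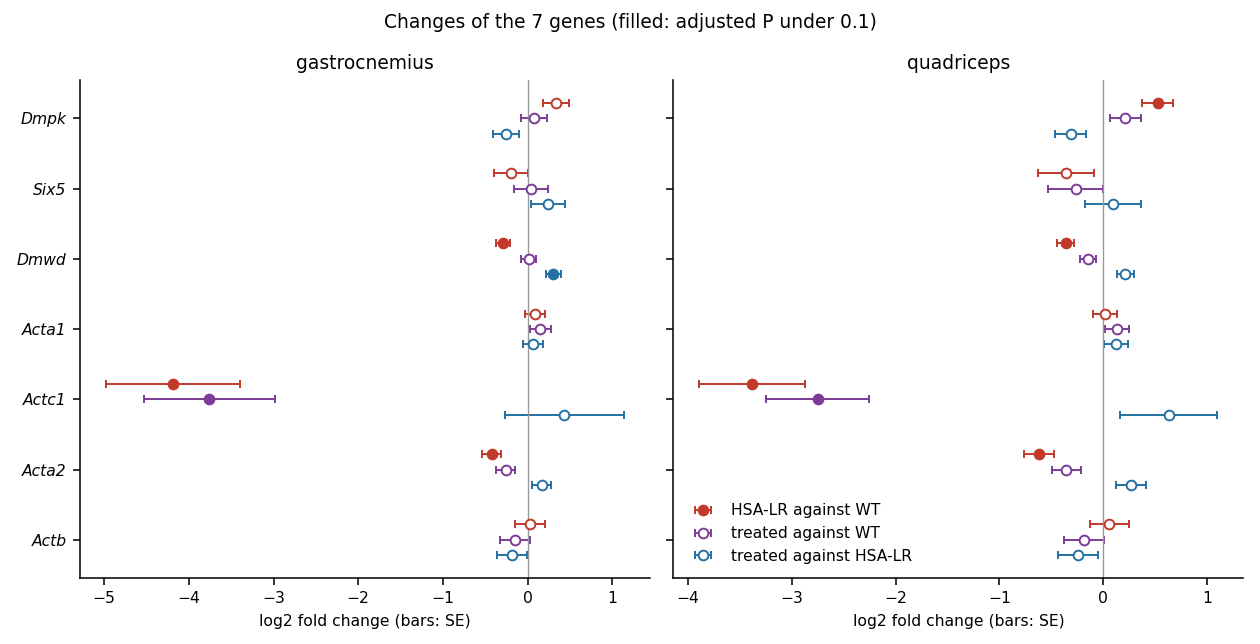
Log2 FC (bars: SE) of the 7 genes in HSA-LR against WT, treated against WT and treated against HSA-LR mice, by muscle, with filled points at an adjusted P under 0.1. Actc1 lies at -4.19 and -3.38 in HSA-LR mice and remains at -3.76 and -2.75 in treated mice, whereas the other genes lie within 1 log2 unit of 0.

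Acta2 (ENSMUSG00000035783.8, GRCm38 chr19:34241090-34255590, minus strand, position from a later version of the gene model) was lower in HSA-LR mice of both muscles. In the quadriceps, Acta2 had 65.9, 50.1 and 71.9 normalized CPM in WT mice, 45.8, 35.4 and 41.0 in HSA-LR mice and 52.0, 46.5 and 47.8 in treated mice. HSA-LR mice lay below all others, and treated and WT mice overlapped. The log2 FC of Acta2 was thus -0.62 between HSA-LR and WT mice (SE 0.14, adjusted P = 0.0214), 1.54-fold lower, and 0.27 in treated against HSA-LR mice (SE 0.14, adjusted P = 0.267). In the gastrocnemius, Acta2 had 79.1, 80.5 and 86.7 normalized CPM in WT mice, 61.6, 58.9 and 64.4 in HSA-LR mice and 72.5, 56.4 and 77.1 in treated mice. All WT mice exceeded all HSA-LR mice, and the treated mice reached from below the HSA-LR mice to just below the WT mice. In HSA-LR against WT mice this was a log2 FC of -0.42 (SE 0.11, adjusted P = 0.0441), 1.34-fold lower, and this call was lost without WT mouse 2 or 3 or any HSA-LR mouse (adjusted P between 0.101 and 0.151), whereas the quadriceps call held in each such fit. On the absolute scale, 4 of 9 Acta2 bins were lower in HSA-LR gastrocnemius and 8 of 9 in HSA-LR quadriceps, where 10.4% and 12.1% of all bins were called.

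Markers of smooth muscle and endothelium are given beside Acta2. The 6 smooth muscle markers other than Acta2 (Myh11, Cnn1, Tagln, Smtn, Mylk and Actg2) summed to 241 to 269 CPM in WT, 215 to 228 in HSA-LR and 221 to 250 in treated gastrocnemius, and to 209 to 247, 145 to 164 and 188 to 208 in the quadriceps. Of these, 1 was lower in HSA-LR gastrocnemius (Tagln, transgelin, -0.43) and 4 in HSA-LR quadriceps, with 0 higher, and 3 were higher in treated against HSA-LR quadriceps. The 4 endothelial markers summed to 193 to 247 CPM in WT and 127 to 163 in HSA-LR quadriceps, with 2 lower and 0 higher, and to 166 to 245 and 190.0 to 214 in the gastrocnemius, with 0 called. The part of the vessel content of the pieces of muscle in the Acta2 values was not tested.

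Actb (ENSMUSG00000029580.14, chr5:142903115-142906754, minus strand), often used as a reference gene, had overlapping values in all groups of each muscle, with the widest spread in HSA-LR quadriceps. Actb had 423, 366 and 325 normalized CPM in WT, 424, 429 and 290.1 in HSA-LR and 312, 296 and 396 in treated gastrocnemius. Its quadriceps values were 406, 348 and 305 in WT, 462, 372 and 268 in HSA-LR and 295, 275 and 355 in treated mice. The WT mice kept their order in both muscles, HSA-LR mouse 3 was the lowest of its group in both, and treated mouse 3 the highest. Between HSA-LR and WT mice, the log2 FC of Actb was 0.03 (SE 0.18, adjusted P = 0.942) and 0.06 (SE 0.19, adjusted P = 0.887), a sign that turned when single mice were left out, and in treated against HSA-LR mice it was -0.18 (adjusted P = 0.584) and -0.24 (adjusted P = 0.439). By edgeR, 0 of its 28 tested bins were called on the absolute scale in the 3 comparisons of either muscle (smallest unadjusted P = 0.0165, in treated against HSA-LR quadriceps). Of all bins, 0.345% to 12.1% were called in these comparisons.

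The muscles themselves differed in 3 of the 7 genes, tested within mice, where 17.7% of all genes were called. Actc1 was 3.23-fold higher in quadriceps than gastrocnemius (log2 FC 1.69, SE 0.17, adjusted P = 0.000298), Acta2 was 1.41-fold lower (-0.50, SE 0.06, adjusted P = 0.000872) and Dmpk was 1.11-fold higher (0.15, SE 0.05, adjusted P = 0.0884). Actc1 was higher in the quadriceps of all 9 mice and Acta2 lower in all 9. All 6 smooth muscle markers and all 6 slow fiber markers were lower in the quadriceps as well.

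Genes whose products bind, cap and fold actin were counted beside the actins. In HSA-LR against WT mice, 15.5% of all tested genes were called in the gastrocnemius and 20.3% in the quadriceps. In treated against HSA-LR mice, 10% and 13.8% were called. Of 28 tested genes of monomer binding, capping and assembly, 6 were higher and 1 lower in HSA-LR quadriceps, among them the muscle cofilin Cfl2 (0.62, adjusted P = 0.00677) and leiomodin Lmod3 (0.54, adjusted P = 0.0111). In the gastrocnemius 2 were higher and 1 lower, with Cfl2 at 0.51 (adjusted P = 0.03) and the capping protein Capzb at -0.35 (adjusted P = 0.057). In treated against HSA-LR mice, 5 were lower and 0 higher in the quadriceps, led by the depolymerizing factor Dstn (-0.69, adjusted P = 0.00709) and gelsolin, Gsn (-0.77, adjusted P = 0.0265), and 1 was higher and 3 lower in the gastrocnemius. The median log2 FC of the list in HSA-LR against WT mice was only -0.08 in the gastrocnemius and 0.06 in the quadriceps. Of 12 tested genes of actin folding and modification, 1 was higher in HSA-LR gastrocnemius (the prefoldin subunit Pfdn2, 0.36, adjusted P = 0.0216) and 0 in HSA-LR quadriceps, and 3 were higher in treated against HSA-LR gastrocnemius, among them the chaperonin subunit Cct3 (0.39, adjusted P = 0.0738), which was also higher in the quadriceps (0.37, adjusted P = 0.0653). No gene of either list was called in treated against WT mice, where 1.04% and 1.41% of all genes were called in the gastrocnemius and quadriceps. The macrophage genes Adgre1, Csf1r, Cd68 and Mrc1 moved with these comparisons too, summing to 19.3 to 32.0 CPM in WT, 50.1 to 59.3 in HSA-LR and 21.7 to 30 in treated quadriceps, and their part was not tested.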

How the data were processed

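For each library the authors deposited read pair counts by exon bin, raw, without normalization and with no replicates pooled. The submitters' processing notes name CASAVA, HISAT, featureCounts 1.5.0 and GRCm38, and the libraries were stranded and polyA-selected. Entries naming no gene (2.82% to 4.14% of a library) were left out. Bins were summed per gene, a pair counting in every bin it overlaps. Positions are from GENCODE M21, promoters from RefSeq. edgeR 4.0.16 in R 4.3.3 fitted the 9 libraries of a muscle together (filterByExpr minimum count 10, minimum total 15, TMM, glmQLFit and glmQLFTest, Benjamini-Hochberg over all genes tested, called at an adjusted P under 0.1), without a replicate block. Bins were tested with the same model and with diffSpliceDGE, and the muscles with the mouse as a block. Shares were compared with exact permutation tests. Levels per kb divide by the summed bin length, or for Acta2 by its transcript length. Scripts were tested on simulated data. Alternatives used limma 3.58.1 (voom, diffSplice), DESeq2 1.42.0, upper-quartile normalization, the largest bin, no filter, 2 groups only, coverage as a covariate, the replicate block and each mouse left out.

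Members, gene lists and tests were chosen with earlier results of these data known. Named were all members, at most 2 called genes per list and comparison, and for each member the 3 genes most correlated with it. Tested bins called for a member were counted, and only some of them were named. The nearby genes and a few markers and bins were named after their values were seen. The lists were DMPK family kinases, relatives of Six5 with EYA factors, SRF and its coactivators, actin folding, actin binding, neighbours of Dmpk, and markers of skeletal muscle, slow fibers, regenerating fibers, smooth muscle, endothelium, fibroblasts, macrophages, adipocytes and erythroid cells. Same-numbered muscles of a group were taken to come from 1 mouse, so the mouse was the block between muscles. The paper states for treated mice that both muscles came from the same animals, without numbers. Across genes the departures of the 2 muscles from their group means correlated at r = 0.136 to 0.723 (median 0.316, 9 mice). Same-numbered mice of different groups reached r = 0.39 within a muscle. Each group held 3 mice. Nothing in the labels says that mice of a group came from separate litters or batches.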

Additional observations from a re-analysis of the deposited data

How the results depend on the processing

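Of 13 single-gene results called, 59 of 73 values under other settings remained called and 14 did not, and none changed direction. With a mouse left out, 59 of 90 remained called. In HSA-LR against WT mice, the number of the 7 genes called was 1 to 3 in the gastrocnemius with a mouse left out and 3 in the main test. For treated against WT mice it was 0 to 1 in each muscle with a mouse left out, and 0 with the replicate block, with 2 groups fitted alone and with 5' to 3' coverage as a covariate. For treated against HSA-LR gastrocnemius it was 0 to 1, and 0 under those 3 settings, with the largest bin and without a filter on low counts, and for the quadriceps 0 to 1, and 1 with 2 groups fitted, the largest bin and DESeq2. Without the block by mouse, the difference of Dmpk between muscles was 0.15 (adjusted P = 0.328) and no longer called.

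Mouse numbers in different groups name different animals, and deviations of same-numbered mice correlated at -0.367 to 0.204 in the gastrocnemius and -0.306 to 0.39 in the quadriceps. With the replicate block, Dmwd in HSA-LR against WT gastrocnemius had an adjusted P of 0.124. The cause of these losses was not tested.

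Log2 FC values that turned sign were small and not called. Dmwd in treated against WT gastrocnemius was -0.08 with the largest bin and -0.004 with the covariate, Six5 there -0.087 with the covariate, and Acta1 in treated against HSA-LR gastrocnemius -0.048 with the largest bin and -0.006 with the covariate. With a mouse left out, Actb in HSA-LR against WT mice ranged from -0.073 to 0.184 and from -0.149 to 0.237 in the 2 muscles, Acta1 in the quadriceps from -0.08 to 0.067, Dmpk in treated against WT gastrocnemius from -0.042 to 0.264, Dmwd from -0.018 to 0.065 and Six5 from -0.095 to 0.234, Acta1 in treated against HSA-LR gastrocnemius from -0.006 to 0.123 and Six5 in the quadriceps from -0.085 to 0.358. The bin 001 share of Acta1 in the 6 carriers minus WT ranged from -0.372 to 0.086 percentage points in the gastrocnemius and from -0.324 to -0.12 in the quadriceps, and in treated minus HSA-LR quadriceps from -0.215 to 0.022. As a log2 ratio of the largest 3' UTR bin to the largest coding bin, the carriers' difference in the quadriceps was -0.043 (exact permutation test, P = 0.0476). By the largest bin, the levels per kb were 68.3 for Dmpk and 26280 for Acta1. With 3 mice per group, changes well above their SE could miss the threshold, as for Dmpk in HSA-LR against WT gastrocnemius (0.34, SE 0.15, adjusted P = 0.209). Counting error is largest for Six5, which had the fewest counts.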

Other observations

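For each of the 7 genes, the 3 genes whose levels followed it most closely were named among 11239 genes with a mean of at least 1 CPM, by Pearson's r of log2 CPM over the 18 libraries after the mean of each muscle was subtracted. These libraries include both muscles of each mouse and the 3 groups, so that a shared difference between groups raises r, and the values are a description. Acta2 was followed by Tagln (r = 0.979), Ecscr (0.937) and Myl9 (0.931), which are known from smooth muscle and endothelium. Dmpk was followed by Tmem132a (0.954), Dok5 (0.93) and Trim7 (0.917), and Dmwd by Gsk3a (0.936), Znrd1as (0.927) and Rfesd (0.923). Actb was followed by Txnip (0.916), Arrdc4 (0.909) and Coq10b (0.89), the first a glucose-responsive arrestin family gene and the next a relative of it. Actc1 was followed by Maob (0.909), Grb10 (0.9) and Gstm2 (0.89), Six5 by Sirt6 (0.923), Gngt2 (0.898) and Pcyt2 (0.888), and Acta1 by Grwd1 (0.868), Myadml2 (0.867) and Morf4l2 (0.855). Among the 7 genes themselves, Dmpk and Dmwd had r = -0.66, Dmwd and Acta2 0.76, and Actc1 and Acta2 0.73.

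Markers of other cells were read once as a measure of what the pieces of muscle held. In HSA-LR against WT mice, macrophage markers were higher (2 of 4 in the gastrocnemius and 4 of 4 in the quadriceps), fibroblast markers were called higher in 1 of 3 and 2 of 3, and 0 adipocyte and 0 erythroid markers were called by edgeR in either muscle. Fibroblast markers summed to 292 to 374 CPM in WT and 454 to 486 in HSA-LR quadriceps. Skeletal muscle markers had 1 of 7 higher in HSA-LR gastrocnemius (Myh1, 1.97, adjusted P = 0.00908) and 2 of 7 lower in HSA-LR quadriceps (Tnnt3, -0.68, adjusted P = 0.00952, and Ckm, -0.47, adjusted P = 0.0312). Slow fiber markers had 0 of 6 called in HSA-LR against WT mice and 4 of 6 higher in treated against HSA-LR quadriceps.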
